A study of Mus musculus with 6 samples.

Results

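The syndecans and glypicans examined here were the 10 mouse genes Sdc1, Sdc2, Sdc3, Sdc4, Gpc1, Gpc2, Gpc3, Gpc4, Gpc5 and Gpc6. They were taken by gene symbol from a table of read counts for 27179 genes, by a rule that uses no measured value. Of the 10 genes, 9 passed the low count filter and were tested, and the other, Gpc5, had no count in any library.

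Syndecans and glypicans are the main core proteins that carry heparan sulfate, a long sulfated sugar chain, on the cell surface. Syndecans cross the membrane and have a short cytoplasmic tail that binds scaffold proteins, whereas glypicans are held at the outer leaflet by a glycosylphosphatidylinositol (GPI) anchor. Through their chains both families hold growth factors, chemokines and matrix proteins, and both can be cut from the surface by proteases or lipases.

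Gene expression was measured by bulk RNA sequencing in cancer-associated fibroblasts (CAFs) from 3 mammary tumors of female raGFP-Wnt1 mice. In this line the MMTV promoter drives a Wnt1 transgene in the mammary gland (FVB/NJ strain), and 1 allele of Pdgfra carries a nuclear H2B-GFP reporter (C57BL/6 strain), so every library of both groups carried both alleles. GFP+ cells of each tumor were sorted into CD34 negative and CD34 positive CAFs, which gave 3 libraries per group with no further treatment; the ages of the mice, and whether each tumor came from a separate mouse, were not given in the sources used here. The sort rests on Pdgfra reporter activity and on CD34, so a group is a gated fraction of a tumor and not a clone or a pure cell type.

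Libraries are named positive or negative 1, 2 and 3 after their CD34 status and tumor. They held from 16238059 to 86609267 counts, with counts for 14314 to 19220 genes, the fewest in negative library 3, which stands apart in that respect. Levels are in CPM, the usual measure of a gene's counts relative to the total of its library, scaled further by the library's composition factor unless stated. The sorted marker Cd34 was lower in the CD34 negative library of all 3 tumors, with a log2 fold change of -3.63 (adjusted p = 0.0414 in limma-voom, 3.61e-05 with the tumor block of the later fits). Of the fibroblast markers, Pdgfra lay between 302 and 506 CPM in all 6 libraries, and the 7 fibroblast markers together took 40822 to 42675 CPM in positive and 41444 to 55244 CPM in negative libraries, by library total.

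The genes are spread over several chromosomes (positions from RefSeq, GRCm38.p6). The syndecans lie apart on chromosomes 12 (Sdc1, 8771396 to 8793716), 15 (Sdc2, 32920723 to 33034721), 4 (Sdc3, 130792537 to 130826318) and 2 (Sdc4, 164424247 to 164443188). Gpc1 (chromosome 1, 92831645 to 92860211) and Gpc2 (chromosome 5, 138273657 to 138280026) also stand alone. Gpc4 (52051007 to 52164923) and Gpc3 (52272426 to 52613974) are neighbours on chromosome X, 108 kb apart with 0 protein-coding genes between them. Gpc5 (115092201 to 116525192) and Gpc6 (116924920 to 117979529) are neighbours on chromosome 14, 400 kb apart. All 10 are protein-coding.

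Promoter sequences are shown for Gpc3, which carried the largest difference between the fractions, for its neighbour Gpc4, and for the syndecans Sdc1, Sdc3 and Sdc4. Each is the stretch of 250 bases before the annotated start in RefSeq GRCm38.p6, read 5′ to 3′ on the strand of the gene, and 7 of the 10 genes were matched, all but Sdc2, Gpc1 and Gpc6. Capitals mark the GC box GGGCGG or its reverse complement CCGCCC, and in Sdc4 also the NF-kB motif GGGAATTCC.
Gpc3, chrX:52613975-52614224, minus strand: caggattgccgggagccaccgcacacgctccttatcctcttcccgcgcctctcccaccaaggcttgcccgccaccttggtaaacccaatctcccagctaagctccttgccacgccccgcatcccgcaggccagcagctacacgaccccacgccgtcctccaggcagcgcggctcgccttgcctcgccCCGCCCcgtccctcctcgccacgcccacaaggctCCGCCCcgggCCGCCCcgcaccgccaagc
Gpc4, chrX:52164924-52165173, minus strand: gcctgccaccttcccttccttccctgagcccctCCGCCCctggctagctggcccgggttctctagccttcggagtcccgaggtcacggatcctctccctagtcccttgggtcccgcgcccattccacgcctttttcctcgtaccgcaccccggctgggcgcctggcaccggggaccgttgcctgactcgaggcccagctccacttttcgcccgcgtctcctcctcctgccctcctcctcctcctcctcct
Sdc1, chr12:8771146-8771395, plus strand: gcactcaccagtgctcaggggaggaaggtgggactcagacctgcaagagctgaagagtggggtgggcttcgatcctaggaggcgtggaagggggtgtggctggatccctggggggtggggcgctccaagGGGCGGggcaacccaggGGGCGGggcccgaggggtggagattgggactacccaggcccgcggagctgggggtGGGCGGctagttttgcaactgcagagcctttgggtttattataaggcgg
Sdc3, chr4:130792287-130792536, plus strand: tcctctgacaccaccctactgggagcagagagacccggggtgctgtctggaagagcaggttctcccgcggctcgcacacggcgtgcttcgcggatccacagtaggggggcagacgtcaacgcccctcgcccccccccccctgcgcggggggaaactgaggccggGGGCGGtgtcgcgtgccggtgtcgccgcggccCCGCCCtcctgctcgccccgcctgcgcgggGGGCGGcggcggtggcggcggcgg
Sdc4, chr2:164443189-164443438, minus strand: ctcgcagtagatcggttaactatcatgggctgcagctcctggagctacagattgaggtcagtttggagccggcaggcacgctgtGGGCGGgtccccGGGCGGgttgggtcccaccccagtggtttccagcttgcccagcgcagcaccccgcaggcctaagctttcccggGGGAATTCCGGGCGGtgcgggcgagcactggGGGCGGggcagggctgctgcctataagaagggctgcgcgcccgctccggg

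On both strands, the GC box occurred 3 times before Gpc3, 1 time before Gpc4, 3 times each before Sdc1 and Sdc3, and 4 times before Sdc4. It was present in 32.7% of 32851 promoter windows of the same length. The 5 windows had 66.0% (Sdc1) to 76.4% (Sdc3) G and C. The letters TATAAA, found in 12.4% of all windows, and the E-box CACGTG, found in 6.02%, were in none of the 5, and CCAAT, found in 33.8%, occurred 1 time each before Sdc1 and Gpc3. The NF-kB letters, found in 0.210% of windows, were present 1 time before Sdc4, next to a GC box without overlapping it. These matches describe letters and not bound sites.

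The comparison asked how the 2 kinds of heparan sulfate carrier differed between CD34 negative and CD34 positive CAFs. Gpc3 showed the largest difference, at 2.84-fold to 3.64-fold lower levels in CD34 negative CAFs of the 3 tumors, while Gpc1, Sdc3 and Sdc1 were higher and Sdc2 was lower in the CD34 negative library of all 3 tumors. Without a term for the tumor, limma-voom called 0 of the 9 tested genes at an adjusted p under 0.05, against 0.121% of all 14855 genes tested. At an unadjusted p under 0.05 there were 5, against 14.3% of all genes; edgeR called 0, and DESeq2 called 1 (Gpc3), against 4.70% of all genes. With the tumor as a block, which compares the fractions within each tumor, 5 of the 9 passed, against 8.57% of all genes and 12.1% of those genes whose mean log2 CPM was 3 or more, a level that all tested members but Gpc2 reached. Of the 5, 3 were higher in CD34 negative CAFs (Sdc1, Sdc3 and Gpc1), against 4.32% of all genes, and 2 were lower (Sdc2 and Gpc3), against 4.25%. Other fits that use the tumor called 4 members in edgeR with the block (3.87% of all genes), 6 in DESeq2 with the block (11.7%) and 2, Gpc3 and Sdc3, with the tumor as a random effect (4.73%). In bulk libraries, fewer cells that express a gene and less RNA per cell cannot be told apart.

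Within the tumors, the sign was shared by all 3 for 8 of the 9 genes, all but Gpc4 (for Gpc2 only with composition scaling), against 46.3% of all genes. The libraries of the groups did not overlap for 5 of the 9 (Sdc2, Sdc3, Gpc2, Gpc3 and Gpc6), against 20.4% of all genes, and for 4, without Gpc2, when scaled by library totals alone, against 20.2%. The median absolute log2 fold change was 0.70 over the 9 genes and 0.37 over all genes, and the median with its sign was 0.38 against -0.03. Calls, signs, overlap and medians rest on the same values, so none of them adds evidence to another. In the fit with the block and without tumor 3, which drops negative library 3, 4 genes passed and Sdc2 did not. That fit called 2019 of all 15514 genes tested.

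**Figure D1:**
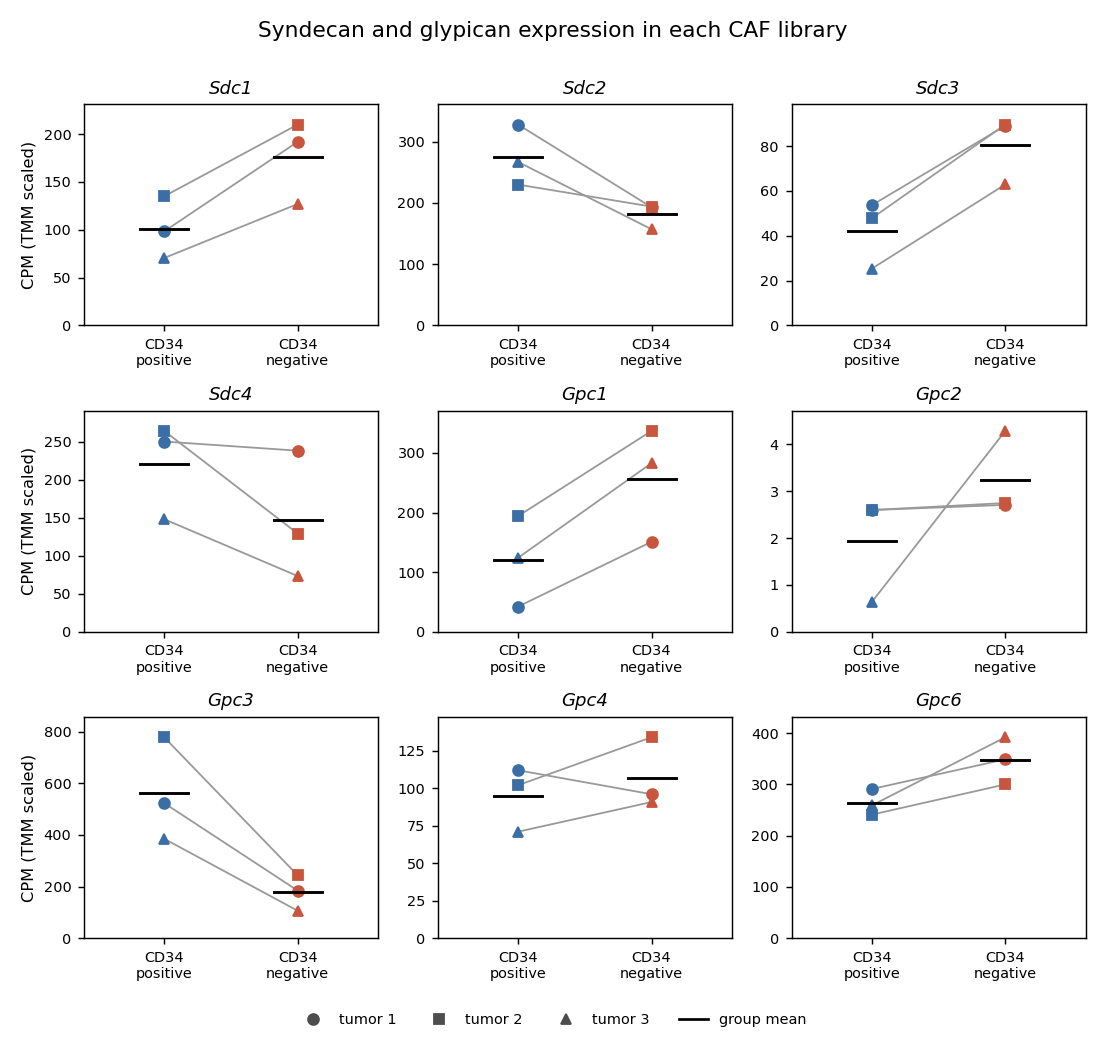
Level of each tested gene in every library. The vertical axes give CPM scaled by composition factor and start at 0; markers stand for tumors, grey lines join the fractions of each tumor and black bars are group means (n = 3). All 3 lines fall steeply for Gpc3 and rise for Sdc1, Sdc3 and Gpc1, while those of Gpc4 cross.

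Among the syndecans, Sdc1 and Sdc3 were higher and Sdc2 was lower in CD34 negative CAFs with the tumor as a block. Sdc1 encodes syndecan-1, the main syndecan of epithelia, which Wnt1-driven mammary tumors are known to depend on. Sdc1 was at 98.3, 135 and 70.5 CPM in positive libraries 1, 2 and 3 and at 192, 210 and 127 CPM in the negative libraries. The groups overlapped, since positive library 2 lay above negative library 3, but each negative library was above its partner, by 1.55-fold to 1.96-fold. The log2 fold change was 0.82 ± 0.29 (SE, n = 3 per group, adjusted p = 0.257 in limma-voom) and 0.80 ± 0.13 with the block (adjusted p = 0.00720). With the tumor as a random effect Sdc1 did not pass (adjusted p = 0.0557).

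Sdc3 encodes syndecan-3, first described in the nervous system. It was at 53.6, 47.8 and 25.3 CPM in positive and at 89.1, 89.6 and 62.9 CPM in negative libraries, so that every negative library lay above every positive one. The difference within a tumor was 1.66-fold, 1.88-fold and 2.49-fold. Its log2 fold change was 1.00 ± 0.29 (adjusted p = 0.182 in limma-voom) and 0.97 ± 0.16 with the block (adjusted p = 0.00701).

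Sdc2 encodes syndecan-2, the syndecan typical of mesenchymal cells, and Sdc4 encodes syndecan-4, which takes part in focal adhesions. Sdc2 was at 328, 230 and 267 CPM in positive and at 193, 194 and 157 CPM in negative libraries. The groups did not overlap, and tumor 2 showed the smallest difference, with a log2 ratio of -0.24 against -0.76 in each of the other tumors. The log2 fold change was -0.61 ± 0.19 (adjusted p = 0.212 in limma-voom) and -0.59 ± 0.14 with the block (adjusted p = 0.0353). The blocked call was lost without tumor 1 (adjusted p = 0.109) and without tumor 3 (adjusted p = 0.0505), in edgeR with the block (adjusted p = 0.0993) and with the tumor as a random effect (adjusted p = 0.0608).

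Sdc4 was at 250, 264 and 148 CPM in positive and at 238, 129 and 73.2 CPM in negative libraries. In tumor 1 the fractions were nearly level, at a log2 ratio of -0.072, whereas in tumors 2 and 3 the ratio was -1.03 and -1.02. Its log2 fold change was -0.70 ± 0.41 (adjusted p = 0.479 in limma-voom), and -0.70 ± 0.19 with the block missed the threshold at an adjusted p of 0.0543 (95% interval -1.13 to -0.27). Without tumor 1, the nearly level one, the blocked change was -1.02 with an adjusted p of 4.27e-04. Without tumor 2 or tumor 3 it was -0.55 or -0.57 and did not pass (adjusted p = 0.182 and 0.0816). In edgeR with the block and with the tumor as a random effect Sdc4 did not pass (adjusted p = 0.135 and 0.205). It passed in DESeq2 with the block (adjusted p = 0.0155) and narrowly on thinned counts with the block (adjusted p = 0.0492).

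Among the glypicans, Gpc3 was lower and Gpc1 higher in CD34 negative CAFs with the block, and Gpc6, Gpc4 and Gpc2 passed neither test. Gpc3 encodes glypican-3, which binds Hedgehog and Wnt ligands and restrains growth of the body before birth. Gpc3 was at 523, 778 and 385 CPM in positive and at 184, 243 and 106 CPM in negative libraries. The lowest positive library lay well above the highest negative one, and the difference within a tumor was 2.84-fold, 3.19-fold and 3.64-fold. The log2 fold change was -1.66 ± 0.35 (adjusted p = 0.0967 in limma-voom) and -1.68 ± 0.13 with the block (adjusted p = 2.37e-04), a 3.20-fold lower level. The blocked change stayed between -1.76 and -1.60 when each tumor was left out, with adjusted p from 7.01e-11 to 5.79e-05. These p-values rest on fewer tumors and on a variance pooled with that of other genes. They do not measure how well the tumors agree.

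Gpc1 encodes glypican-1, a glypican of many cell types that binds fibroblast growth factors through its chains. It was at 42.2, 194 and 124 CPM in positive and at 151, 337 and 283 CPM in negative libraries. Its level differed widely between tumors and the groups overlapped, yet the negative library exceeded its partner by 3.59-fold, 1.73-fold and 2.28-fold. Its log2 fold change was 1.25 ± 0.53 (adjusted p = 0.336 in limma-voom) and 1.19 ± 0.18 with the block (adjusted p = 0.00540). With the block it passed without each tumor in turn, at changes of 0.99 to 1.45, but with the tumor as a random effect it did not (adjusted p = 0.0896).

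Gpc6 and Gpc4 encode glypicans close to each other in sequence that are made by many tissues, including mesenchyme. Gpc6 was at 291, 241 and 259 CPM in positive and at 349, 300 and 392 CPM in negative libraries. The groups did not overlap, but the log2 fold change was small, at 0.38 ± 0.18 (adjusted p = 0.378 in limma-voom) and 0.39 ± 0.13 with the block (adjusted p = 0.0998, 95% interval 0.10 to 0.68). Gpc4 was at 112, 102 and 71.0 CPM in positive and at 96.0, 134 and 90.8 CPM in negative libraries. It was lower in the negative library of tumor 1 and higher in those of tumors 2 and 3, and its blocked log2 fold change was 0.19 ± 0.15 (adjusted p = 0.522), with a 95% interval of -0.16 to 0.54. The neighbours Gpc3 and Gpc4 thus had a within-library ratio, per exon length, of 4.79, 7.81 and 5.56 in positive and of 1.96, 1.86 and 1.20 in negative libraries.

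Gpc2 and Gpc5 were the scarce glypicans. Gpc2 encodes glypican-2, known from the developing nervous system, and was at 2.60, 2.60 and 0.635 CPM in positive and at 2.71, 2.75 and 4.29 CPM in negative libraries. The groups were apart by less than the counting error in tumors 1 and 2, and the only wide gap was in tumor 3, where Gpc2 had 18 counts in the positive and 156 in the negative library. The 18 counts give an exact 95% interval of 0.392 to 1.05 CPM by library total, which covers counting error only. The blocked log2 fold change of Gpc2 was 0.55 ± 0.59 (adjusted p = 0.648, 95% interval -0.78 to 1.88), and 0.059 without tumor 3. Scaled by library totals alone, Gpc2 was 0.985 times its partner in tumor 1, so the shared sign in 3 tumors depended on the scaling. Gpc2 also overlaps Stag3, which had 334 counts against 714, and whether counting used strand was not stated. Gpc5, the closest relative of Gpc3, had 0 counts among 269912299, which allows up to 0.0111 CPM over all libraries and from 0.0346 to 0.185 in a single one.

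**Figure D2:**
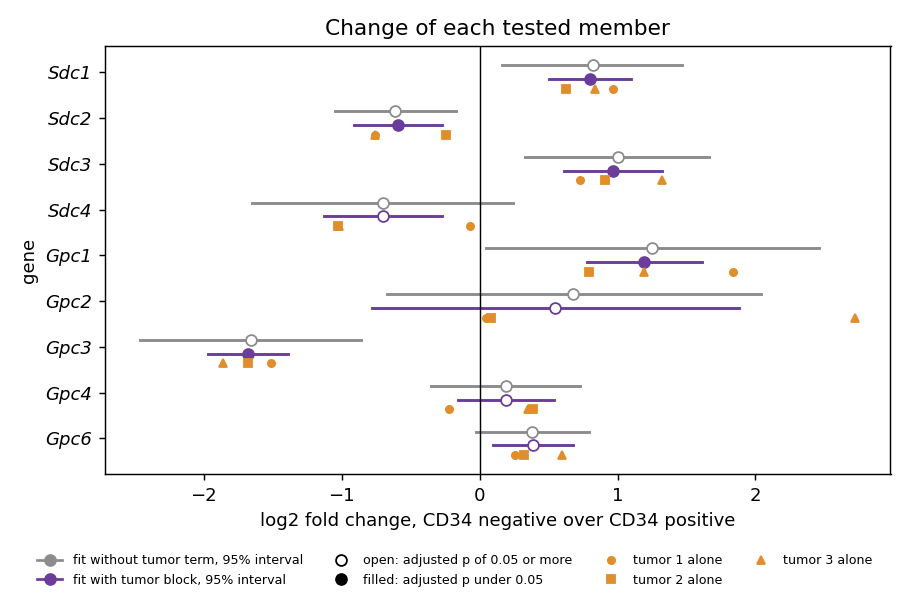
Log2 fold change of each tested gene, CD34 negative over CD34 positive. Lines are 95% intervals of the fit without (grey) and with (purple) the tumor as a block, filled points have an adjusted p under 0.05, and orange markers are single tumors. The intervals narrow with the block, least for Gpc2, whose tumor 3 lies far from the other tumors, at 2.72.

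Levels can be compared between genes only per length, so CPM were divided by the exon length in kilobases that the count table gives. In CD34 positive CAFs Gpc3 was the most abundant of the 10 genes in all 3 libraries, at 248 ± 87.8 CPM per kb (SD, n = 3). Sdc4 and Sdc2 followed at 89.7 ± 25.6 and 83.0 ± 14.9, which did not differ beyond their spread and changed places between libraries. Gpc4 (40.8 ± 9.16), Gpc6 (39.0 ± 3.78), Gpc1 (33.8 ± 21.4) and Sdc1 (33.1 ± 10.6) formed a group without a stable order. Sdc3, at 8.49 ± 3.01, and Gpc2, at 0.774 ± 0.451, ranked below all others but Gpc5 in each library.

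In CD34 negative CAFs no gene led in all libraries. The most abundant gene was Sdc4 in negative library 1, Gpc3 in library 2 and Gpc1 in library 3. Mean levels ran from Gpc3 (78.3 ± 30.4 CPM per kb) through Gpc1 (72.4 ± 26.9), Sdc4 (59.7 ± 34.0), Sdc1 (57.6 ± 14.3), Sdc2 (54.9 ± 6.36) and Gpc6 (51.4 ± 6.82) to Gpc4 (46.0 ± 10.2), and each neighbour in this order lay within the spread of the next. Sdc3 was at 16.2 ± 3.07 and Gpc2 at 1.29 ± 0.360. Summed over the family, syndecans were at 214 ± 39.7 CPM per kb in positive and 188 ± 52.9 in negative libraries, and glypicans at 362 ± 105 and 249 ± 48.6, with overlapping libraries in both families. Gpc6 depended on the length used: with the longest GENCODE transcript (4146 against 6762 bases) its mean was 63.6 in positive and 83.8 in negative libraries, the latter above the 80.2 of Gpc3 on that scale.

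The make-up of each family per length was compared next. Gpc3 took 68.9%, 71.7% and 62.0% of the glypican total per length in positive libraries 1, 2 and 3 and 37.2%, 35.1% and 20.7% in the negative ones. The share of Gpc1 was 9.25% ± 4.98 in positive and 28.7% ± 8.19 in negative libraries (SD, n = 3), that of Gpc6 was 11.4% ± 3.51 and 21.3% ± 5.98 (17.6% and 32.2% with the longest transcript), and that of Gpc4 was 11.6% ± 2.62 and 18.4% ± 0.922. Shares sum to the whole, so the higher shares of Gpc4 and Gpc6 cannot be read apart from the lower one of Gpc3. By its own level, Gpc6 was higher in the negative library of all 3 tumors, with a blocked log2 fold change of 0.39 that did not pass (adjusted p = 0.0998 in limma-voom). The ratio of Gpc3 to Gpc1, which does not depend on library scaling, was 19.4, 6.26 and 4.86 in positive and 1.90, 1.13 and 0.586 in negative libraries. Within the tumors this was a 10.2-fold, 5.54-fold and 8.30-fold lower value, which combines the fall of Gpc3 with the rise of Gpc1.

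Within the syndecans, Sdc1 took 15.3% ± 3.33 of the family total in positive and 30.9% ± 4.03 in negative libraries. Sdc3 took 3.87% ± 0.759 and 8.78% ± 1.06. Sdc2 and Sdc4 together held most of the family in all 6 libraries, with Sdc2 at 39.5% ± 8.82 and Sdc4 at 41.3% ± 5.43 in positive libraries, against 30.2% ± 5.74 and 30.1% ± 9.66 in negative libraries. The ratio of Sdc2 to Sdc1 was 3.08, 1.57 and 3.50 in positive and 0.928, 0.856 and 1.15 in negative libraries. The ratio of Sdc4 to Sdc3 was 9.43, 11.1 and 11.9 in positive and 5.40, 2.91 and 2.35 in negative libraries. Neither ratio overlapped between the groups. Each pair sets a gene with a lower mean in CD34 negative CAFs over one with a higher mean. The lower level of Sdc4 did not pass in limma-voom with or without the block. The separation therefore restates these directions and is no further evidence.

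**Figure D3:**
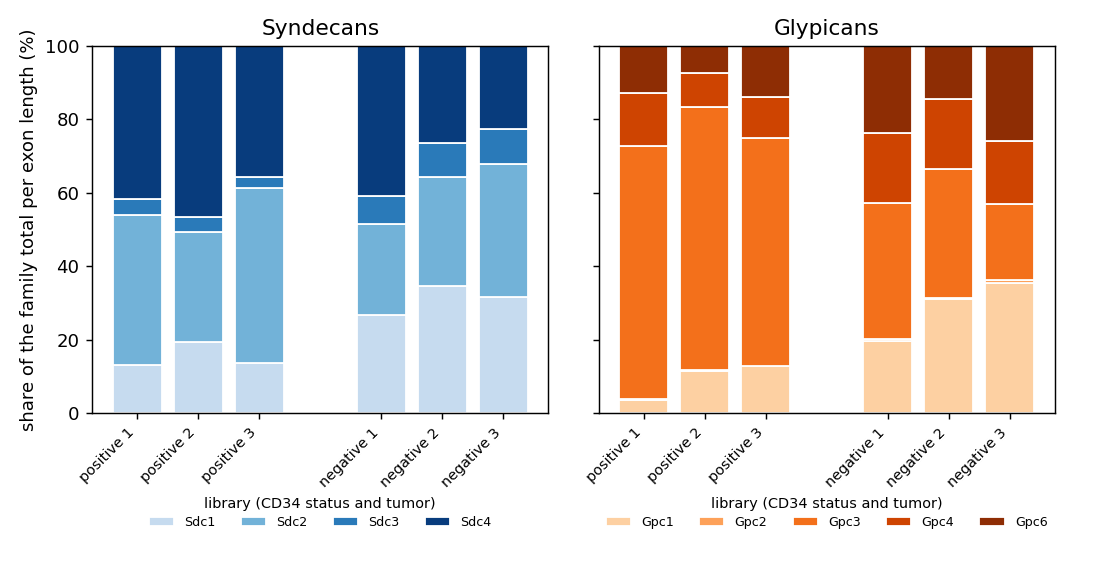
Share of each gene in its family's total, from CPM per exon length, as stacked bars that add up to 100% in each library (CD34 status and tumor on the horizontal axis). Gpc3 takes over 60% of the glypican bar in positive libraries and at most 37.2% in negative ones; Gpc5 had no counts.

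The genes that build, trim and use heparan sulfate were counted in 9 lists holding 90 genes, of which 83 were tested. Without the block 0 of the 83 passed in limma-voom, with 19 at an unadjusted p under 0.05 (14.3% of all genes), 0 called by edgeR and 8 by DESeq2 (4.70%). With the block 19 passed, against 8.57% of all genes and 12.1% of those with a mean log2 CPM of 3 or more. Of these, 11 were higher (against 4.32%) and 8 lower (against 4.25%) in CD34 negative CAFs. Without tumor 1, 2 and 3, the blocked fit called 16, 13 and 24 pathway genes. Over all genes these fits called 1134 of 14893, 851 of 14634 and 2019 of 15514. The median log2 fold change of the 83 genes was 0.07, against -0.03 over all genes, and the median absolute change was 0.37 in both. In edgeR with the block 6 passed (3.87% of all genes), and with the tumor as a random effect 9 passed (4.73%). All changes of single genes in the pathway lists are from limma-voom with the block.

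Of the other proteins that carry heparan sulfate or related chains, 5 of 8 passed with the block, against 8.57% of all genes. In edgeR with the block 3 passed, with the tumor as a random effect 4, and in the blocked fit without tumor 2 there were 3. Agrn (agrin, a basement membrane proteoglycan) was at 131, 104 and 71.3 CPM in positive and at 394, 251 and 161 CPM in negative libraries, with a log2 fold change of 1.34 ± 0.14 (adjusted p = 8.51e-04). Srgn (serglycin, of secretory granules) rose by 1.13 and Hspg2 (perlecan, of basement membranes) by 0.54 on the log2 scale, the latter close to the threshold (adjusted p = 0.0453). Tgfbr3 (betaglycan, a co-receptor for TGF-beta) changed by -0.83 and Cd44 (the hyaluronan receptor, which can carry heparan sulfate) by -0.81. The groups did not overlap for 5 of the 8, these same genes, against 20.4% of all genes. Calls and overlap rest on the same values, so the second adds no evidence to the first.

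Of 12 linker and polymerisation enzymes 1 passed, Extl3 (which adds early sugars of the chain), at 0.64 ± 0.14 (adjusted p = 0.0206), a share close to the 8.57% of all genes, and edgeR with the block called 0 of the 12. The polymerase genes Ext1 and Ext2 were at 0.11 ± 0.12 and -0.25 ± 0.14 (adjusted p = 0.647 and 0.326). Of 12 tested sulfotransferase and epimerase genes 4 passed, against 8.57% of all genes. Of these, 3 rose, Hs2st1 (2-O-sulfation) by 0.73 and Hs6st1 and Hs6st2 (both 6-O-sulfation) by 0.78 and 1.23. The other, Glce (the epimerase that makes iduronic acid), fell, at -0.94. In edgeR with the block 0 of these 12 passed, with the tumor as a random effect 2 did, 1 in each direction, and without tumor 1 none was lower. Of the 4 extracellular editing enzymes 1 passed, against 8.57% of all genes. Hpse (heparanase, which cleaves the chain) changed by -1.66 ± 0.27 (adjusted p = 0.00717), a call that was lost with the tumor as a random effect. The sulfatase genes Sulf1 and Sulf2, whose products remove 6-O-sulfate, were at 0.19 and 0.17 (adjusted p = 0.385 and 0.459).

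Of 9 tested genes for release from the surface, 2 passed, against 8.57% of all genes. Both rose, Timp3 (an inhibitor of sheddases) by 1.03 and Furin (a convertase) by 0.58, at adjusted p = 0.0479 and 0.0488. These calls were lost in edgeR with the block and with the tumor as a random effect, both of which called 0 of the 9, and 1 gene passed in DESeq2 with the block and without tumor 1 or tumor 2. The sheddase genes Adam10 and Adam17 were at -0.34 and -0.28 (adjusted p = 0.155 and 0.245). None of the 8 genes for GPI attachment and none of the 8 genes for cytoplasmic partners of syndecans passed in limma-voom with the block (0 of each at an unadjusted p under 0.05 without it, and 0 called by edgeR or DESeq2 with or without the block), the latter between -0.33 (Sdcbp, which encodes syntenin-1) and 0.26 (Gipc1). Of 4 tested surface partners of glypicans 1 passed, against 8.57% of all genes. Lrp1 (an endocytic receptor) rose by 0.74 (not called by edgeR with the block), and Cd81 (a tetraspanin) was at 0.44 with an adjusted p of 0.0520.

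Among 18 ligands that bind heparan sulfate, 1 rose and 4 fell with the block, against 4.32% and 4.25% of all genes. Fgf7 (a fibroblast growth factor that acts on epithelia) was at 78.5, 66.3 and 89.4 CPM in positive and at 21.0, 28.6 and 43.7 CPM in negative libraries, with no overlap and a log2 fold change of -1.34 ± 0.18 (adjusted p = 0.00322). Bmp2 (a bone morphogenetic protein) changed by -1.54, Cxcl12 (a chemokine) by -0.82 and Fn1 (fibronectin) by -0.80. Mdk (midkine, a growth factor) rose by 1.02 ± 0.16 (adjusted p = 0.00517). Without tumor 3, 8 of the 18 passed, 1 higher and 7 lower, in a fit that called 2019 of all 15514 genes tested. By contrast, edgeR with the block called 2 (3.87% of all genes) and the fit with the tumor as a random effect called 1 (4.73%).

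**Figure D4:**
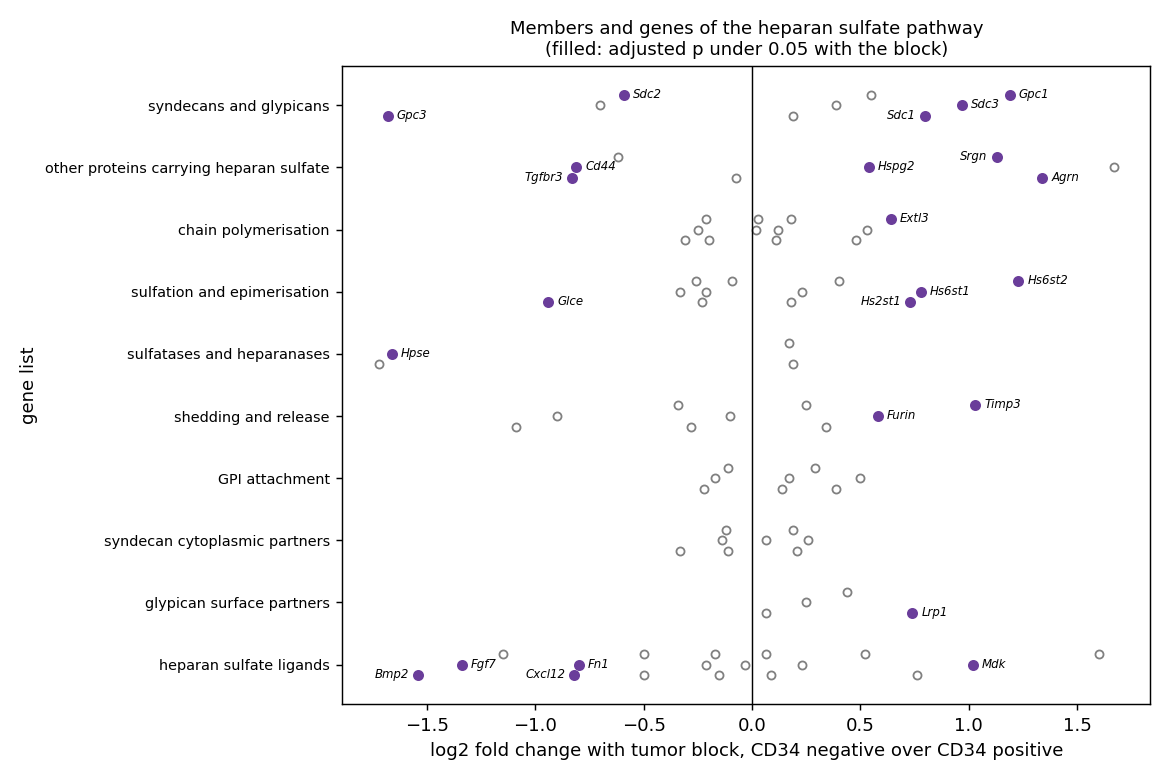
Log2 fold change with the tumor as a block (horizontal axis, CD34 negative over CD34 positive) of each tested gene, by list (vertical axis; the spread of points within a list is for legibility). Filled, named points have an adjusted p under 0.05; 5 of the 9 syndecans and glypicans and 19 of the 83 pathway genes are filled, on both sides of 0.

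Markers of other cell types were read beside these results, as summed CPM by library total. The 8 epithelial markers, all with counts, took 146, 101 and 21.4 in positive and 161, 152 and 62.4 in negative libraries, a ratio within the tumors of 1.11, 1.50 and 2.91. On the same scale Sdc1, the epithelial syndecan, had ratios of 1.85, 1.58 and 1.77. In limma-voom 0 of the 8 markers passed with the block (0 at an unadjusted p under 0.05 without it). With the block, unadjusted p was under 0.05 for Krt8, Krt5 and Krt18 (0.0110, 0.0197 and 0.0348). Without it all 8 log2 fold changes were above 0. Of the 8 markers, 7 were higher in all 3 tumors, where 46.3% of all genes kept 1 sign. The 6 pericyte markers took 85.6 to 187 in positive and 199 to 237 in negative libraries. Of these, Cspg4, Mcam and Notch3 rose by 1.81, 2.15 and 1.55 with the block, and Kcnj8 and Abcc9 changed by -2.31 and -1.71. The remaining marker, Rgs5, had the largest rise, 2.60, but did not pass (adjusted p = 0.0803 in limma-voom with the block). Its means were low, at 0.818 CPM in positive and 6.16 CPM in negative libraries. The part of either marker list in the changes of the syndecans and glypicans was not tested. Endothelial markers took 6.35 to 28.3 in positive and 5.13 to 17.9 in negative libraries, myeloid markers 5.97 to 13.7 and 11.9 to 14.8, lymphocyte and plasma cell markers 2.71 to 6.32 and 3.08 to 3.54 (Ms4a1 and Mzb1 at 0), and Schwann cell markers 11.1 to 18.2 and 7.79 to 16.8. Of the 7 fibroblast markers, Dcn and Lum were lower with the block, at -1.12 and -0.73.

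For Sdc3 and Gpc3, the syndecan and the glypican with the largest change without the block, the genes with the most similar pattern over the 6 libraries were sought among 8943 genes, by the root mean square difference of centred log2 CPM. The nearest to Sdc3 were Olfm1 (0.088), Olfml3 (0.103) and Pld3 (0.121). The nearest to Gpc3 were Lmnb1 (0.182), Selenoh (0.221) and Cxcl1 (0.225). Likeness over 6 libraries from 3 tumors is a description and carries no test.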

How the data were processed

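Counts were deposited per gene for 6 libraries; the authors aligned reads to GRCm38/mm10 and counted them with Rsubread (per the study's methods; the submitters' processing notes name featureCounts). The deposited counts are raw, with replicates kept apart; strand and multi-mapping settings were not given in the sources used here. Groups and tumor numbers came from the sample titles.

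Genes with few counts were left out by filterByExpr, at a minimum count of 10, libraries were scaled by TMM, and limma-voom compared the groups with Benjamini-Hochberg adjustment over all 14855 genes tested, two-sided, threshold 0.05. The study's methods name voom and limma and do not state the design; the main fit had no tumor term. Both fractions of a number come from the same tumor, so the numbers pair the libraries; deviations from the group means correlated at 0.373, 0.350 and 0.219 in tumors 1, 2 and 3. Values with the tumor as a block stand beside the results whose call they change. Without a tumor term, p-values rest on the spread between the libraries of a group. With the block, they rest on how far the difference between fractions varies from tumor to tumor. In limma each gene's spread is also pulled towards a value shared over all genes. The p-values therefore do not measure a gene's own spread alone. The tumors may share a mouse. CPM are scaled by TMM factor (0.941 to 1.04). Intervals of counts are exact (Clopper-Pearson); the limit for 0 counts is 3 counts.

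The fits used limma 3.58.1, edgeR 4.0.16 and DESeq2 1.42.0 in R 4.3.3 and were tested on simulated data. Named genes are all 10 members, Cd34 and Pdgfra, and the genes of each list that passed with up to 2 others per list. The 3 nearest patterns of a syndecan and a glypican are also named. Other marker genes that are named, and Stag3, were chosen after their values were seen. The members and lists were chosen with earlier results of these data known. Alternatives covered normalization, filter, annotation, test, tumor term, depth, gene length and each library and tumor left out.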

Additional observations from a re-analysis of the deposited data

How the results depend on the processing

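The number of syndecan and glypican genes with an adjusted p under 0.05 was 0 without a term for the tumor and depended on that term. With the tumor as a replicate block it was 5 in limma-voom, 4 in edgeR (without Sdc2) and 6 in DESeq2 (with Sdc4). On counts thinned to the smallest library it was 6 with the block (with Sdc4), in a fit that called 1118 of 13746 genes. With the tumor as a random effect it was 2 (Gpc3 and Sdc3), and DESeq2 without the block gave 1 (Gpc3). With the block and without 1 tumor in turn it was 4 to 5, in fits that called 851 to 2019 of all genes. Without tumor 1, Sdc4 passed and Sdc2 did not, and without tumor 3, Sdc2 did not pass. In the 9 fits without the block from which 1 library or 1 tumor was dropped it was 0. These fits called from 0 (for example without tumor 2) to 86 (without tumor 1) of all genes. A count of 0 members there was nearly fixed in advance and shows no stability. The other scalings and filters, symbols only, edgeR, quality weights and thinned counts without the block also gave 0. They called from 9 (edgeR) to 161 (quality weights) of all genes. The cause of these differences was not tested. Gpc4 changed sign in 1 fit, to -0.017 without positive library 3, and lay between there and 0.36 when libraries or tumors were left out without the block; the direction of the other 8 genes was kept under all 27 alternatives. The pathway lists gave 0 genes without and 19 with the block, and 6 in edgeR and 20 in DESeq2 with the block. On thinned counts with the block they gave 16, in the fit that called 1118 of 13746 genes. They gave 9 with the tumor as a random effect, and 13 to 24 with the block when a tumor was left out. Depth limits the values of Gpc2 and Gpc5, and the smallest library held 16238059 counts.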
